A study of Homo sapiens with 12 samples.

Results

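The genes described are the zinc finger genes of human chromosome 19 that K562 cells express. They were chosen by a rule on the count table: protein-coding genes on chromosome 19 named ZNF followed by a number, with a mean raw count of at least 200 over the 12 libraries. The rule selected 135 members out of 249 chromosome 19 genes with such names and out of 58735 genes in the table. The level of a member therefore helped to choose it, and levels are given as a description only. All 135 members entered the tests, and 90 of the 114 chromosome 19 ZNF genes under the minimum did so as well. Just inside the minimum lay ZNF91 at a mean of 200.6 counts, ZNF543 at 202.7 and ZNF626 at 208.1. Just outside it lay ZNF44 at 199.8 counts, ZNF222 at 194.3 and ZNF615 at 192.3.

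The cells were K562, an erythroleukemia line of human origin driven by BCR-ABL1, a fusion kinase, and able to produce hemoglobin after exposure to hemin. Each of 4 groups held 3 libraries. Mock DMSO cells received the solvent alone, mock nilotinib cells received the BCR-ABL1 inhibitor nilotinib at 0.1 µM, hemin DMSO cells received the solvent and 50 µM hemin for 24 h, and hemin nilotinib cells received both agents. Cells were pretreated with the solvent or nilotinib for 24 h before hemin and were collected at 0 or 24 h of hemin. The library names carry 0 in the mock groups and 24 in the hemin groups, read here as these hours. Hemin and 24 h more in culture therefore cannot be told apart. The time since nilotinib was first added was also longer in hemin nilotinib than in mock nilotinib. Library totals ranged from 33457078 to 50506990 counts. The methods call the 3 replicates biological without saying how the cultures were kept apart, and K562 is a single line from 1 leukemia, so p-values measure the spread between cultures of that line.

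Zinc finger proteins of the C2H2 class bind DNA through a row of short zinc-holding loops, the fingers, and a large share of those encoded on chromosome 19 also carry a KRAB domain. KRAB recruits the corepressor TRIM28 (KAP1), which brings the histone methyltransferase SETDB1 and HP1 proteins and silences chromatin, often at retroelements. These genes lie in tandem clusters that grew by duplication in primates and other mammals. In the GENCODE 29 coding sequences the 135 members held 0 to 32 C2H2 fingers by a text pattern, with a median of 12. A text pattern for the KRAB A box was found in 100 members and was not found in 35, and a divergent box can escape such a pattern. ZNF91, with the most fingers, and ZNF93 are known repressors of retroelements, and ZNF274 is known to bind the 3′ ends of other zinc finger genes.

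Promoters of members are shown because members share a letter pattern there that the rule did not use. RefSeq promoter windows, which span the first listed start of each gene and lie mostly before it, were found for 121 of the 135 members on GRCh38.p14. The letters CCGGAAG, the core bound by ETS factors, occurred on either strand in 60 of these 121 windows, or 49.59%. The share was 10.67% in all 27305 promoter windows, 21.85% in those of 8111 protein-coding genes with a mean of at least 200 counts, 17.85% in those of 521 other chromosome 19 genes at that level and 40.14% in those of 147 ZNF genes of other chromosomes. The other letter patterns searched occurred in smaller shares of the members' windows: ACTACAA (the ZNF143 core) in 7.44%, TGACNNNGC (the antioxidant response element core) in 12.4%, CACGTG (the E-box) in 5.79%, TTCNNGAA (the heat shock element core) in 4.96%, AAGATGGCG (the YY1 core) in 4.96%, AGATAA (the GATA pattern) in 2.48% and GCGCATGCG (the NRF1 core) in 0.826%. In all promoter windows the shares in the same order were 2.95%, 13.6%, 7.44%, 7.84%, 1.85%, 10.5% and 2.10%. In those of protein-coding genes with a mean of at least 200 counts they were 4.14%, 15.6%, 10.7%, 5.745%, 4.61%, 4.525% and 4.12%. In those of other chromosome 19 genes at that level they were 3.65%, 16.5%, 10.4%, 5.18%, 7.10%, 4.03% and 4.99%. The members' YY1 core share thus lay near that of protein-coding genes at the same count minimum. A match is a description of these letters and not a bound site. The 6 windows below are those of the members with the largest rise and the largest fall in each of 3 comparisons: ZNF226 and ZNF77 with nilotinib alone, ZNF347 and ZNF823 with nilotinib under hemin, and ZNF432 and ZNF324B with hemin alone. Each is written 5′ to 3′ on the strand of its gene, and capitals mark CCGGAAG or its reverse complement CTTCCGG. In ZNF347 capitals also mark TTCNNGAA, which overlaps it, and TGACNNNGC. The windows of ZNF77 and ZNF823 held none of the letter patterns searched. The window of ZNF432 lies at a start within its annotated gene span.
ZNF226 (chr19:44164850-44165149, plus strand): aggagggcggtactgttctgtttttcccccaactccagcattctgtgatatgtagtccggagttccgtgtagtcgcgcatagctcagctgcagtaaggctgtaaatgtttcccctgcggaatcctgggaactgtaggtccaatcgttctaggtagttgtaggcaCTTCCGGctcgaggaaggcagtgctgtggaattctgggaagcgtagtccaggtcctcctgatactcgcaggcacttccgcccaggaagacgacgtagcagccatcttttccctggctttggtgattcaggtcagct
ZNF347 (chr19:53159004-53159303, minus strand): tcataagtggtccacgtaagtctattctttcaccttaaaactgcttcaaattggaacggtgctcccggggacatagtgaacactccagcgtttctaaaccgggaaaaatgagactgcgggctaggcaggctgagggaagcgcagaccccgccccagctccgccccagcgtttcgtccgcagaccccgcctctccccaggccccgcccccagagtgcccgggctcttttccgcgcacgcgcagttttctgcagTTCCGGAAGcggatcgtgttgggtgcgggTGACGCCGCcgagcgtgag
ZNF432 (chr19:52048789-52049088, minus strand): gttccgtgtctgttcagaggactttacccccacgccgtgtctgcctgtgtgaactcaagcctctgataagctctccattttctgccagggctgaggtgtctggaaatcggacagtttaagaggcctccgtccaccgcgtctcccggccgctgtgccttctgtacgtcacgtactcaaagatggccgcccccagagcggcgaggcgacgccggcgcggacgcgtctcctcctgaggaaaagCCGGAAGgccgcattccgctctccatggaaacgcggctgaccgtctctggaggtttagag
ZNF324B (chr19:58451372-58451671, plus strand): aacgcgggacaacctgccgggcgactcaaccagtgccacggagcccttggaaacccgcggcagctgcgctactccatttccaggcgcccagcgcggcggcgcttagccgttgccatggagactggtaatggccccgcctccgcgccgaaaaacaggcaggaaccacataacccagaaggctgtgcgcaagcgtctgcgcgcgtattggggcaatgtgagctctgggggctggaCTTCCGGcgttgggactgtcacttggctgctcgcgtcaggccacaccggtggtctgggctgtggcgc
ZNF77 (chr19:2944922-2945221, minus strand): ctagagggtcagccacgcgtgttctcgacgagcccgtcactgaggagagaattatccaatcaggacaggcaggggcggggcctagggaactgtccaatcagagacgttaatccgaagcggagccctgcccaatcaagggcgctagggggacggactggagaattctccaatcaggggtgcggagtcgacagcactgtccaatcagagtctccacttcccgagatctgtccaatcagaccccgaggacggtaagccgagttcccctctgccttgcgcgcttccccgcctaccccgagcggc
ZNF823 (chr19:11738897-11739196, minus strand): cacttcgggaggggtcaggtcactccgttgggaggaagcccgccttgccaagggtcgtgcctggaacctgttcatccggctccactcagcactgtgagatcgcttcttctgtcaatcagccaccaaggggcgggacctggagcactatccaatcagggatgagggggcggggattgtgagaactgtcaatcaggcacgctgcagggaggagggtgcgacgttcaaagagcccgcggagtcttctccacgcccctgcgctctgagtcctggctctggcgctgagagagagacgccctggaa

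Members were expressed at low levels for their length. The median was 2.5 CPM per kilobase (CPM is the read count of a gene scaled to library size, here with TMM factors) over the 12 libraries, with a range of 0.491 to 25.9. The medians were 7.85 CPM per kilobase for 10042 protein-coding genes chosen by the same count minimum and 4.15 for 176 ZNF genes on other chromosomes. The highest levels per kilobase were those of ZNF581 at 25.9, ZNF146 at 21.3, ZNF524 at 18.2, ZNF787 at 17.6 and ZNF580 at 17.1 CPM per kilobase. These 5 genes encode proteins with few fingers, 3 to 10 each, and the KRAB A box pattern was not found in any of them. ZNF91 had the lowest level, 0.491 CPM per kilobase.

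Summed over the 135 members, the level was 2464 ± 34.4 CPM (SD, n = 3) in mock DMSO and 2841 ± 47.9 in mock nilotinib, and the libraries of these groups did not overlap. It was 2726 ± 303 in hemin DMSO and 2905 ± 33.6 in hemin nilotinib. The hemin DMSO libraries spread from 2377 to 2924 CPM, and replicate 2 stood apart at the low end. Without that library the mean of the other 2 was 2900 CPM. The sum is led by a few abundant members, and the median member told a different order, with group means of 11.95 CPM in mock DMSO, 14.7 in mock nilotinib, 10.9 in hemin DMSO and 14.8 in hemin nilotinib. Group means of single members differed by 1.13-fold to 10.2-fold between the highest and the lowest group, with a median of 1.92-fold. Hemin DMSO was the lowest group for 65 members and the highest for 38. These ranges and orders were not computed over all genes tested, so they are not shown to be particular to the members.

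Changes of single members were tested with edgeR's quasi-likelihood test over all 20821 genes kept by a filter on low counts, and a gene was called at a Benjamini-Hochberg adjusted p under 0.05. At least 1 of the 4 comparisons of groups called 112 members (83%), near the 81.3% of all genes tested and the 86.9% of protein-coding genes at the same count minimum. The other 23 members were called in none, and they include ZNF91, ZNF581 and ZNF626.

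Nilotinib without hemin raised more members than it lowered. It raised 39 of 135 members (28.9%) and lowered 10 (7.41%), while 20.7% of all genes tested were called higher and 21.8% lower. The median log2 fold change was 0.24 over the members and 0.0039 over all genes tested, and 95 of 135 members had a positive value. ZNF genes on other chromosomes did not lean that way: 32 of 176 rose and 35 fell, with a median of -0.02. Other chromosome 19 genes had a median of -0.13, with 121 of 615 higher and 179 lower. The 90 tested chromosome 19 ZNF genes under the count minimum had 13 higher and 5 lower, with a median of 0.16. No test of the difference between these families was run.

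ZNF226, a KRAB zinc finger gene at chr19:44165073-44178381, had the largest rise with nilotinib alone. Its levels were 9.28, 8.94 and 9.42 CPM in mock DMSO and 26.0, 27.3 and 26.4 in mock nilotinib. The groups were far apart (log2 fold change 1.53 ± 0.16, SE, adjusted p = 1.56e-06). ZNF528 rose from 3.60, 4.25 and 3.13 CPM to 11.1, 10.6 and 5.94 (log2 fold change 1.34 ± 0.24, adjusted p = 0.000333), and its nilotinib libraries were the less even. ZNF665 rose from 3.98, 3.55 and 3.40 CPM to 8.06, 9.89 and 8.82 (1.29 ± 0.21, adjusted p = 0.0001). All 3 carry the KRAB A box pattern, and ZNF528 and ZNF665 lie in the same cluster of 26 members between ZNF175 and ZNF331.

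ZNF77, near the short arm's end at chr19:2933218-2944971, had the largest fall. It read 10.1, 8.25 and 8.09 CPM in mock DMSO and 2.92, 2.77 and 2.83 in mock nilotinib (log2 fold change -1.63 ± 0.20, adjusted p = 5.81e-06). ZNF792 fell from 22.1, 18.8 and 18.2 CPM to 8.24, 10.03 and 8.97 (-1.12 ± 0.17, adjusted p = 7.58e-05). ZNF823 fell from 7.88, 7.13 and 8.63 CPM to 3.25, 4.11 and 3.98 (-1.06 ± 0.24, adjusted p = 0.00203). ZNF146, which encodes fingers and little else and is the second member by level per length, fell from 112, 111 and 122 CPM to 70.0, 72.7 and 70.7 (-0.69 ± 0.13, adjusted p = 0.000496).

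**Figure D1:**
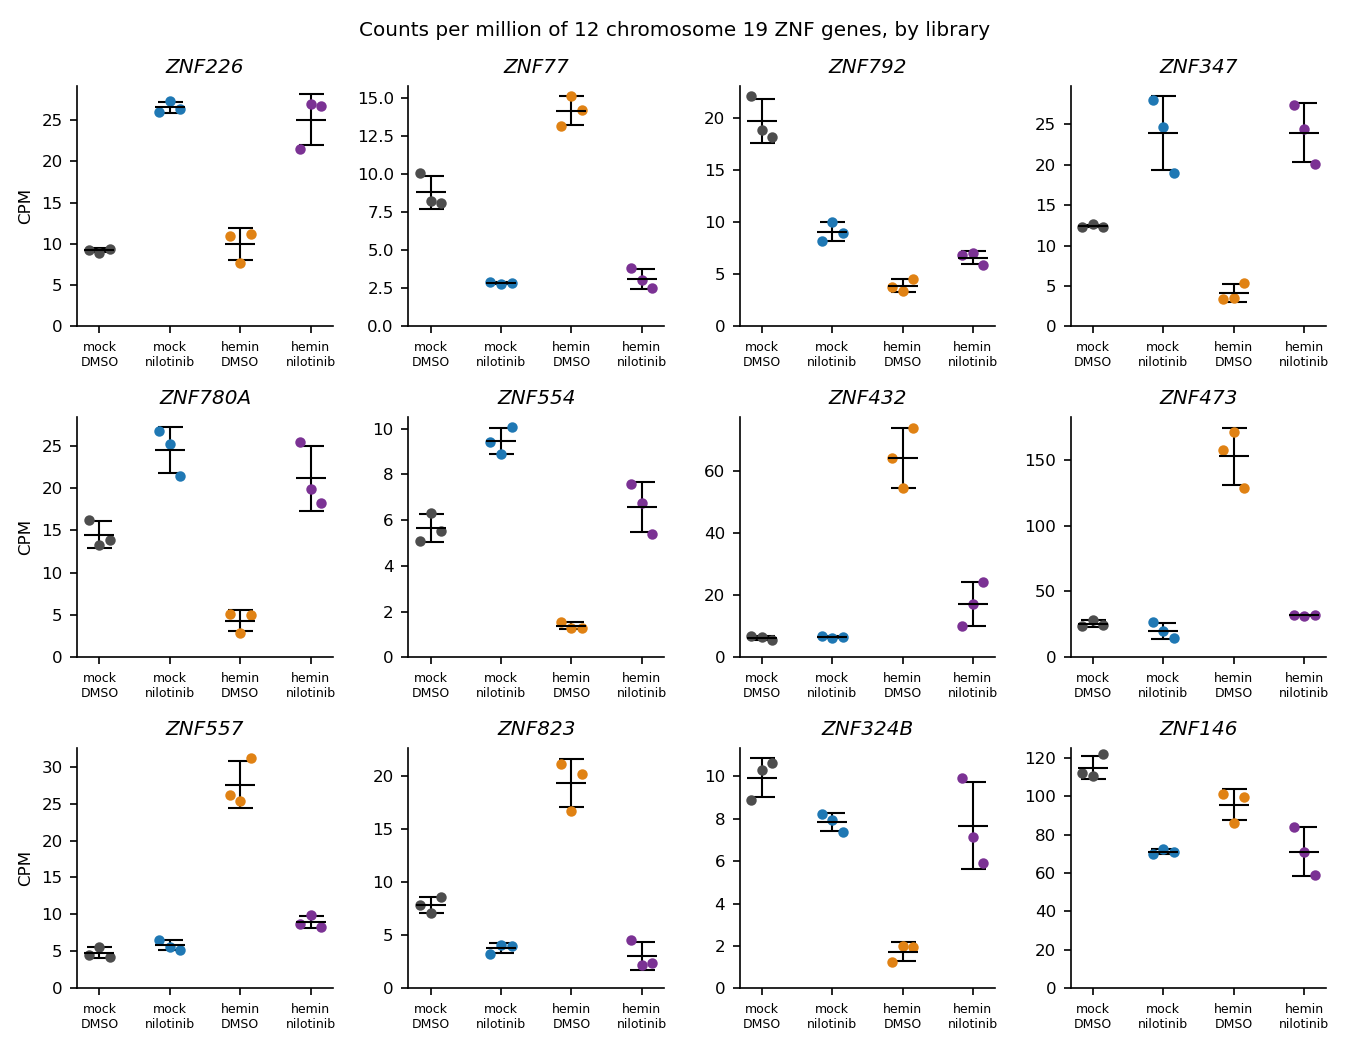
Level of 12 members in each library in TMM-scaled CPM (y axis, from 0) for the 4 groups (x axis), with points for the 3 libraries and bars for the mean ± SD. ZNF226 sits at 8.94 to 9.42 CPM in mock DMSO and at 26.0 to 27.3 in mock nilotinib, and ZNF432 reaches 54.5 to 74.1 in hemin DMSO against 5.67 to 7 in both mock groups.

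Under hemin, nilotinib changed 91 of 135 members, and more of them up than down. It raised 63 members (46.7%) and lowered 28 (20.7%), against 32.4% and 31.8% of all genes tested. The median log2 fold change was 0.37 over the members and 0.02 over all genes. Here ZNF genes on other chromosomes leaned the same way, with 76 of 176 higher, 42 lower and a median of 0.24, whereas other chromosome 19 genes had 162 of 615 higher, 267 lower and a median of -0.22. The chromosome 19 ZNF genes under the count minimum, 90 of them tested, had 22 higher and 23 lower, with a median of -0.13. Scaling by library totals alone shifted the median of all genes by 0.18 and gave 70 members higher and 18 lower, so that 79.5% of called members were higher in place of 69.2%. Relative to the median of all genes the members' median was 0.33 to 0.35 under each of the 4 scalings tried. A scaling factor shifts all genes of a library alike, so this difference could hardly vary and is no test of the lean.

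ZNF347 rose most. It read 3.43, 3.48 and 5.38 CPM in hemin DMSO and 27.4, 24.4 and 20.1 in hemin nilotinib (log2 fold change 2.54 ± 0.21, adjusted p = 3.78e-08). ZNF780A rose from 5.15, 2.87 and 4.996 CPM to 25.5, 19.8 and 18.2 (2.28 ± 0.21, adjusted p = 1.74e-07). ZNF554 rose from 1.56, 1.28 and 1.29 CPM to 7.56, 6.73 and 5.40 (2.25 ± 0.21, adjusted p = 1.76e-07). In all 3 the hemin DMSO libraries were the low ones, below every mock DMSO library, and all 3 also rose with nilotinib in the absence of hemin.

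The largest falls with nilotinib under hemin were those of ZNF823, ZNF473 and ZNF77. ZNF823 went from 21.1, 16.8 and 20.2 CPM to 4.54, 2.20 and 2.36 (-2.68 ± 0.25, adjusted p = 1.6e-07). ZNF473, also called ZFP100, takes part in the 3′-end processing of histone mRNAs. It went from 158, 171 and 128 CPM to 31.8, 31.7 and 32.3 (-2.26 ± 0.18, adjusted p = 3.66e-08). ZNF77 went from 13.2, 15.1 and 14.2 CPM to 3.82, 3.05 and 2.50 (-2.18 ± 0.20, adjusted p = 1.1e-07), so nilotinib lowered it in both settings.

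**Figure D2:**
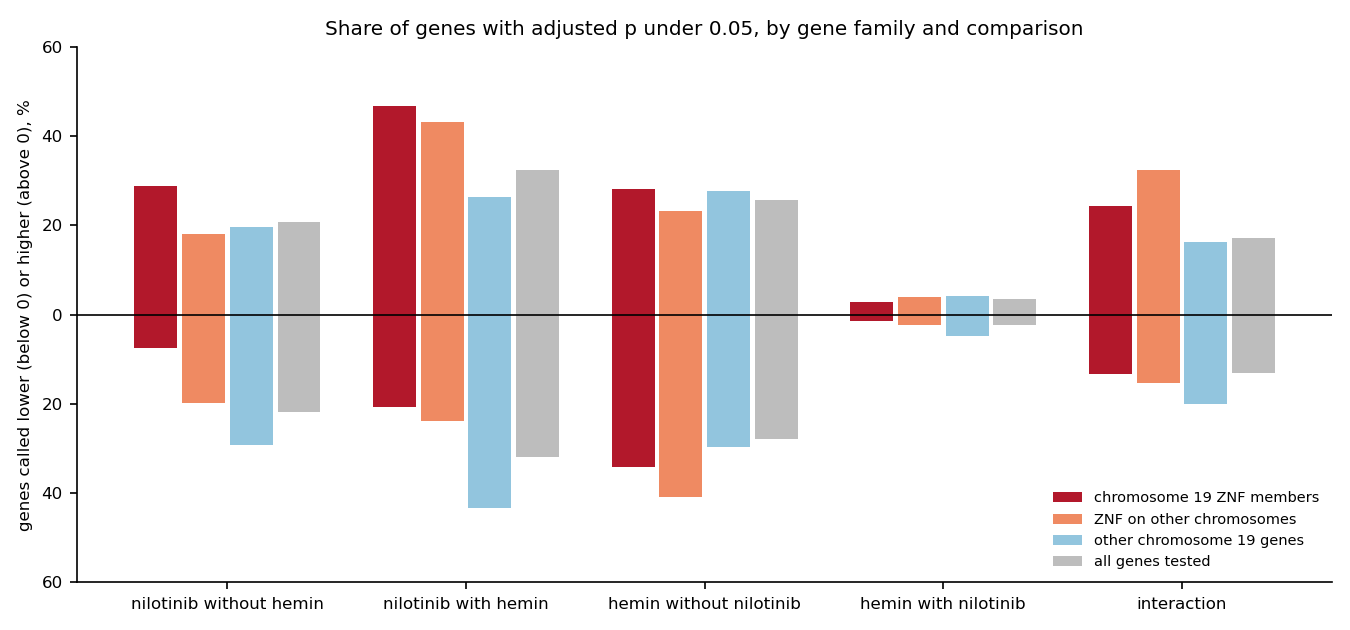
Percent of genes called higher (above 0) or lower (below 0) at an adjusted p under 0.05 (y axis) in the 5 comparisons (x axis), for the 135 members, ZNF genes on other chromosomes, other chromosome 19 genes and all genes tested. With nilotinib without hemin the members reach 28.9% higher and 7.41% lower, against 20.7% and 21.8% of all genes.

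Hemin without nilotinib raised 38 members (28.1%) and lowered 46 (34.1%), against 25.7% of all genes called higher and 27.8% lower and 25.8% and 35.6% of protein-coding genes at the same count minimum. The members' shares lay near both, and the median log2 fold change was -0.03 over the members and -0.05 over all genes. The split depended on the scaling: library totals alone gave 27 higher and 58 lower, and upper-quartile factors gave 46 higher and 41 lower. Without hemin DMSO replicate 2 the counts were 48 higher and 39 lower.

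The largest rises with hemin were large for this family. ZNF432 read 6.91, 6.42 and 5.67 CPM in mock DMSO and 64.4, 54.5 and 74.1 in hemin DMSO (log2 fold change 3.34 ± 0.25, adjusted p = 3.36e-08), about 10.2-fold by group means. ZNF473 rose from 23.8, 28.4 and 24.5 CPM to 158, 171 and 128 (2.58 ± 0.19, adjusted p = 2.99e-08). ZNF557 rose from 4.50, 5.63 and 4.23 CPM to 26.1, 25.3 and 31.2 (2.53 ± 0.18, adjusted p = 2.47e-08). ZNF324B fell from 8.90, 10.3 and 10.6 CPM to 1.23, 2.01 and 1.95 (-2.52 ± 0.24, adjusted p = 4.78e-07). ZNF792 fell to 3.74, 3.35 and 4.57 CPM (-2.34 ± 0.18, adjusted p = 6.25e-08), and ZNF554 to 1.56, 1.28 and 1.29 CPM (-2.03 ± 0.21, adjusted p = 1.12e-06). None of these hemin DMSO ranges overlapped the mock DMSO range, which was a condition for naming these members.

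When nilotinib was present, hemin changed few members, and few of all genes tested. It raised 4 members (2.96%) and lowered 2 (1.48%), against 3.52% of all genes called higher and 2.28% lower. The 4 were ZNF432 (1.40 ± 0.23, adjusted p = 0.00363), ZNF460 (1.15 ± 0.26, adjusted p = 0.0207), ZNF473 (0.66 ± 0.18, adjusted p = 0.042) and ZNF557 (0.63 ± 0.17, adjusted p = 0.0429). In hemin nilotinib ZNF432 read 10.3, 17.0 and 24.3 CPM, against 7, 6.16 and 6.43 in mock nilotinib. The 2 lower members were ZNF358, at 16.2, 19.7 and 20.5 CPM in mock nilotinib and 11.0, 11.6 and 9.79 in hemin nilotinib (-0.80 ± 0.16, adjusted p = 0.0094), and ZNF558 (-0.46 ± 0.13, adjusted p = 0.0417). All 4 members that rose were also higher with hemin in the absence of nilotinib. These calls depended on the fit. With the 6 libraries of this comparison alone edgeR called 0 members, while 23 had an unadjusted p under 0.05, and with the replicate number as a block in those 6 libraries 6 members were higher and 4 lower. DESeq2 over the 12 libraries called 8 higher and 5 lower. Leaving out single libraries gave 1 to 12 members higher and 0 to 7 lower, with the highest counts without hemin nilotinib replicate 1.

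The nilotinib effects without and with hemin come from separate libraries. They also differ in the time since nilotinib was added, which cannot be told apart from hemin. The nilotinib effects had the same sign in 95 of 135 members (70.4%), and in 73% of all genes tested. Both comparisons called 37 members (27.4%), against 32.5% of all genes. Of these, 26 members (19.3%) were higher in both, 7 (5.19%) lower in both and 4 (2.96%) opposite, against 15.5%, 14.8% and 2.19% of all genes. The opposite ones were ZNF792, ZNF550, ZNF134 and ZNF211. ZNF211 rose from 8.40, 8.71 and 9.01 CPM to 17.2, 17.4 and 14.04 with nilotinib alone, but read 24.5, 29.5 and 31.7 in hemin DMSO and 15.1, 14.5 and 11.7 in hemin nilotinib. The difference of the 2 effects, tested as an interaction, was called positive in 33 members (24.4%) and negative in 18 (13.3%), against 17.1% and 13% of all genes. The members' shares lay near those of protein-coding genes at the same count minimum, 22.7% and 15.7%. Under upper-quartile factors the members' counts were 27 and 25 (51.9% positive in place of 64.7%), and under library totals alone 42 and 12 (77.8%). The largest were ZNF324B at 2.49 ± 0.32 (adjusted p = 6.14e-05) and ZNF792 at 1.88 ± 0.25 (adjusted p = 7.03e-05), and on the negative side ZNF211 at -1.95 ± 0.22 (adjusted p = 2.17e-05) and ZNF432 at -1.95 ± 0.33 (adjusted p = 0.000444). ZNF226, by contrast, gave -0.20 ± 0.23 (adjusted p = 0.546), with 21.6, 27.0 and 26.7 CPM in hemin nilotinib against 11.0, 7.72 and 11.2 in hemin DMSO.

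**Figure D3:**
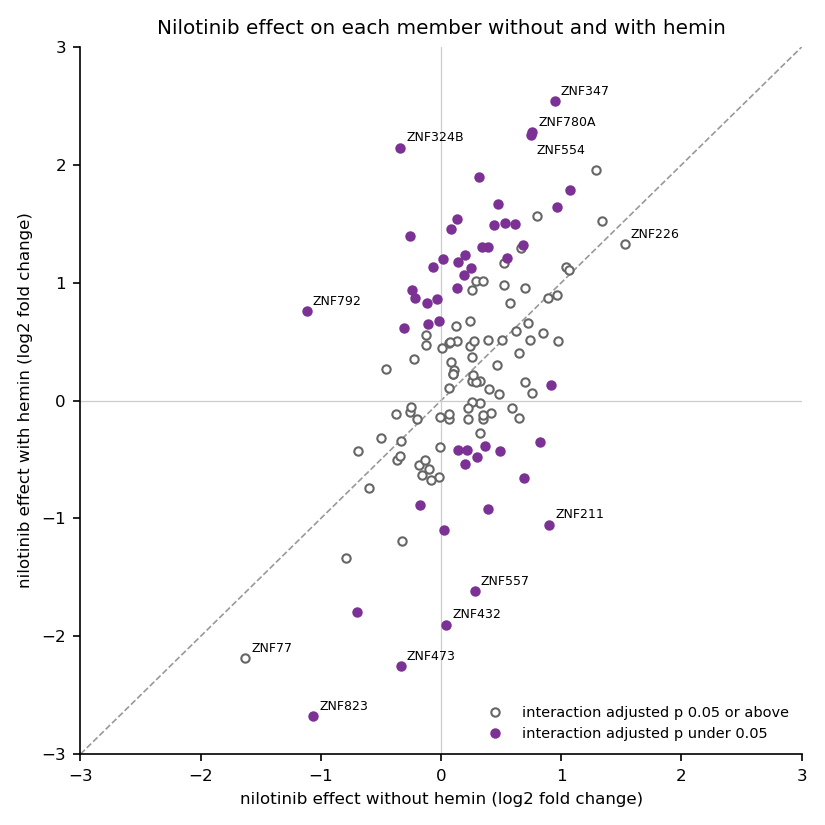
Log2 fold change of each of the 135 members with nilotinib without hemin (x axis) and with hemin (y axis), where filled points have an interaction adjusted p under 0.05 and the dashed line marks equal effects. ZNF347 lies far above the line at 2.54 with hemin and 0.94 without, ZNF226 lies near it, and ZNF211 is at 0.90 without and -1.05 with hemin.

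Among the members with known targets, ZNF93 changed more than ZNF274, and ZNF91 was not called. ZNF274 read 58.2 ± 1.1 CPM (SD, n = 3) in mock DMSO and 64.1 ± 1.7 in mock nilotinib, without passing the test (adjusted p = 0.418), and fell with nilotinib under hemin from 76.0 ± 12 to 56.9 ± 6.6 CPM (-0.42 ± 0.13, adjusted p = 0.0118), a call lost in 5 of 17 alternatives (adjusted p up to 0.134). ZNF93 read 20.6, 22.4 and 20.8 CPM in mock DMSO and 9.96, 6.73 and 7.71 in hemin DMSO (-1.39 ± 0.17, adjusted p = 5.18e-06). With nilotinib under hemin ZNF93 rose to 17.4, 18.6 and 15.0 CPM (1.06 ± 0.17, adjusted p = 4.29e-05). ZNF91 stayed between 3.77 and 6.74 CPM in all 12 libraries and passed no test.

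Along the chromosome the members formed 16 groups separated by gaps of over 1 Mb. The 26 members from ZNF175 to ZNF331 had 11 higher and 1 lower with nilotinib alone and 16 higher and 5 lower with nilotinib under hemin. The 26 members from ZNF264 to ZNF446, at the end of the long arm, had 7 higher and 0 lower and then 13 higher and 8 lower. The 9 members from ZNF628 to ZNF444, which include the abundant ZNF524, ZNF580, ZNF581 and ZNF787, had 1 higher and 2 lower with nilotinib alone. The 15 members from ZNF101 to ZNF257 had 3 higher and 1 lower. The 3 from ZNF181 to ZNF792 were all higher with nilotinib under hemin and all lower with hemin alone. Over all members 28.9% were higher and 7.41% lower with nilotinib alone, against 20.7% and 21.8% of all genes tested. With nilotinib under hemin these shares were 46.7% and 20.7%, against 32.4% and 31.8%. Members next to each other differed by slightly less than members taken over all pairs. With nilotinib alone the median difference between the log2 fold changes of 119 neighbouring pairs was 0.39, and over all 9045 pairs of members it was 0.45. With hemin alone these medians were 0.79 and 0.83. ZNF554 and ZNF77, in the same group of 3, changed in opposite directions in 3 comparisons.

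**Figure D4:**
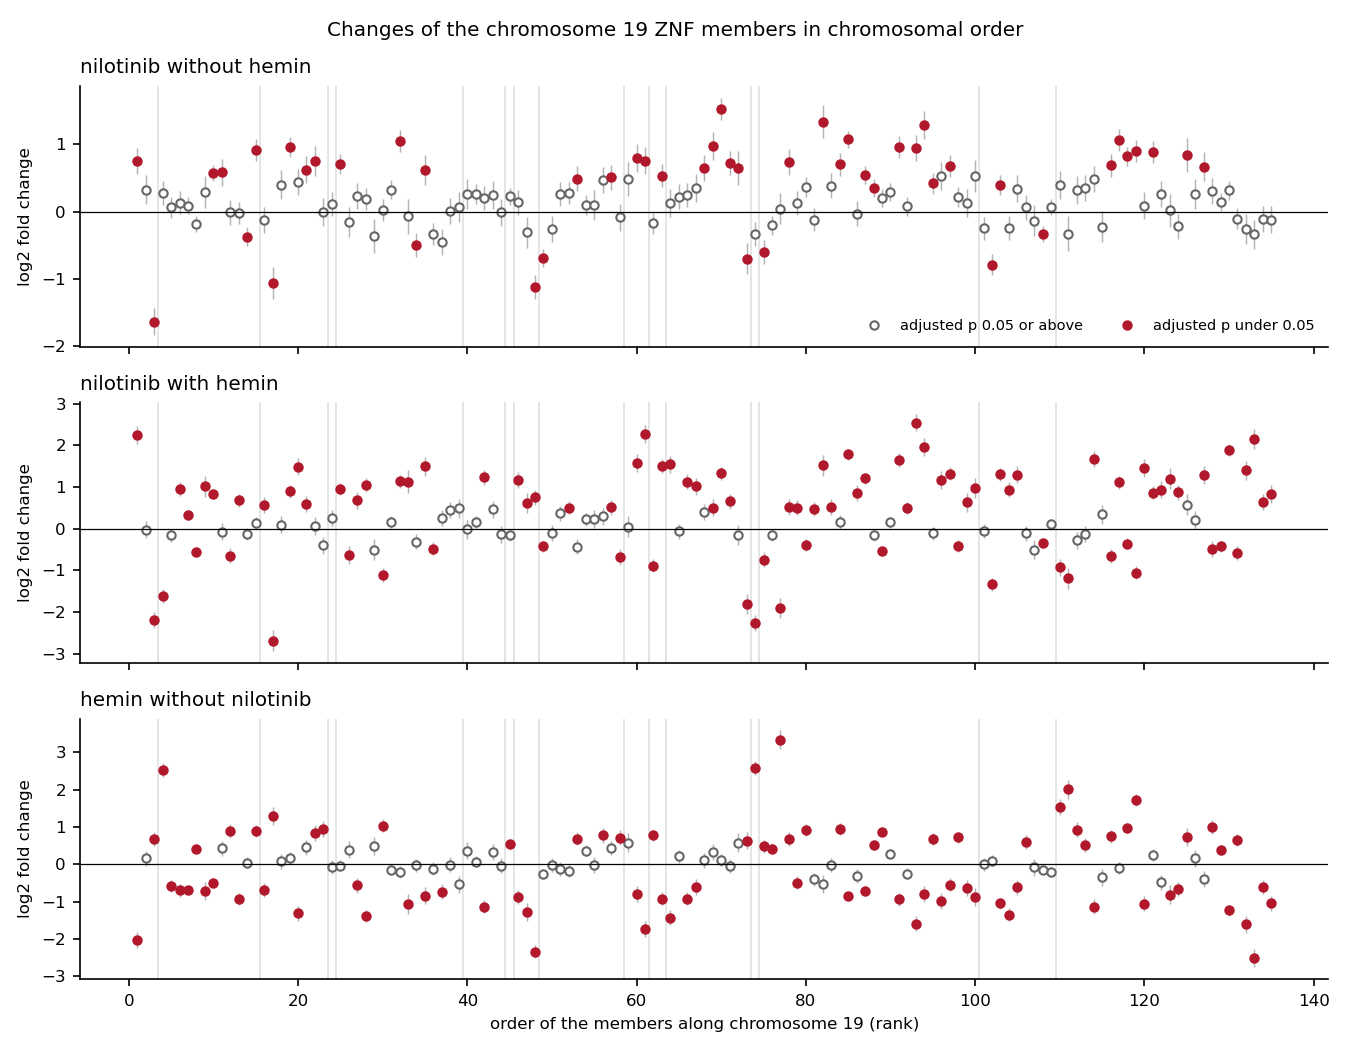
Log2 fold change ± SE (y axis) of the 135 members in their order along chromosome 19 (x axis, rank), for nilotinib without hemin, nilotinib with hemin and hemin without nilotinib; filled points passed an adjusted p of 0.05 and grey lines separate groups more than 1 Mb apart. Some groups hold both higher and lower members and others lean to a single side. With nilotinib alone 39 filled points lie above 0 and 10 below, and ZNF264 to ZNF446 has 7 above and 0 below. These are 28.9% and 7.41% of the members, against 20.7% and 21.8% of all genes tested, for the first counts.

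In members with the KRAB A box pattern and in members without it, more rose than fell with nilotinib. With nilotinib alone 32 of the 100 with the pattern rose and 6 fell (median 0.27), and 7 of the 35 without it rose and 4 fell (median 0.13). With nilotinib under hemin 50 of 100 rose and 19 fell (median 0.47), and 13 of 35 rose and 9 fell (median 0.17). Of all genes tested 20.7% rose and 21.8% fell with nilotinib alone, and 32.4% and 31.8% with nilotinib under hemin. The shares that rose among members without the pattern, 20% and 37.1%, lay near those. Their shares that fell were 11.4% and 25.7%. Of the 78 members with at least 12 fingers, 27 rose and 4 fell with nilotinib alone, and of the 57 with fewer, 12 rose and 6 fell. With nilotinib under hemin the shares that rose were in the other order, 44.9% (35 of 78) and 49.1% (28 of 57), and 13 and 15 fell. By promoter letters, 18 of the 60 members with CCGGAAG rose with nilotinib alone and 3 fell (median 0.26), and 15 of the 61 without it rose and 6 fell (median 0.22). With nilotinib under hemin 31 of the 60 rose and 12 fell (median 0.50), and 23 of the 61 rose and 14 fell (median 0.10). No test was run between these groups.

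The proteins that KRAB zinc fingers work through were measured in the same libraries. Of 15 such partners, 2 rose and 2 fell with nilotinib alone and 3 rose and 3 fell with nilotinib under hemin. Of all genes tested, 42.5% were called with nilotinib alone, 64.2% with nilotinib under hemin and 53.6% with hemin alone. TRIM28, the corepressor itself and a chromosome 19 gene, read 831 ± 29.5 CPM (SD, n = 3) in mock DMSO, 863 ± 43.9 in mock nilotinib, 676 ± 65.9 in hemin DMSO and 798 ± 126 in hemin nilotinib and passed neither nilotinib test (adjusted p = 0.792 and 0.148). SETDB1, which methylates histone H3, rose with nilotinib under hemin from 30.8 ± 0.512 to 43.6 ± 2.9 CPM (0.50 ± 0.12, adjusted p = 0.00193). FAM208A, a subunit of the HUSH silencing complex also named TASOR, rose from 54.4 ± 7.42 to 91.99 ± 14.7 CPM (0.76 ± 0.14, adjusted p = 0.00016). The other HUSH subunits on the list did not follow it: PPHLN1 fell from 96.3 ± 13.9 to 57.0 ± 1.67 CPM (-0.76 ± 0.13, adjusted p = 0.000114), and MPHOSPH8 read 69.6 ± 1.91 and 70.5 ± 5.69 CPM (adjusted p = 0.901). The HP1 gene CBX1 fell from 111 ± 11.1 to 54.4 ± 11.0 CPM (-1.03 ± 0.14, adjusted p = 9.37e-06). The other HP1 genes on the list, CBX3 and CBX5, were not called (log2 fold changes 0.09 and 0.18, adjusted p = 0.623 and 0.372). With hemin alone 4 partners rose and 6 fell. SETDB1 and FAM208A were among those that fell. SETDB1 read 52.3 CPM in mock DMSO and 48.1 in mock nilotinib, and FAM208A read 86.3 and 91.3. CBX1 and PPHLN1 were among those that rose. CBX1 read 75.4 CPM in mock DMSO and 61.0 in mock nilotinib, and PPHLN1 read 54.6 and 40.5.

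All 8 K562 markers, which are erythroid genes, were expressed, and they moved with the drug. With nilotinib alone 7 of 8 rose and 0 fell (median log2 fold change 1.82), and with nilotinib under hemin 8 of 8 rose (median 2.39), with 3.06 for TAL1, 3.41 for LMO2 and 3.48 for NFE2. TFRC, among these 8, was very uneven in hemin nilotinib at 1264 ± 1370 CPM (SD, n = 3). With hemin alone 2 rose and 4 fell. Markers of other cells moved with the drug as well. Summed over a fixed list of 10 such genes, they read 417 to 499 CPM in mock DMSO, 154 to 191 in mock nilotinib, 605 to 897 in hemin DMSO and 120 to 151 in hemin nilotinib. Of the 8 tested, 1 was higher and 6 lower with nilotinib alone, and 0 higher and 7 lower with nilotinib under hemin. KRT8 made up most of the sum, the T-cell marker CD3E stayed at or below 0.351 CPM and the B-cell marker MS4A1 was at or near 0. The part of either marker list in the members' changes was not tested. In bulk RNA fewer cells of a kind and less RNA per cell cannot be told apart.

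Shared sequence limits a few members. ZNF468 shares 50.5% of its 150-base words with other genes, most often with ZNF320. ZNF324 shares 25.6% with other genes, most often with ZNF446. Over 25% of the exon length of 3 members overlaps a gene on the same strand, and of 4 members a gene on the opposite strand. The counter and its strand setting are not given in the sources used here, so the counts of these members are uncertain. Among the members described above, ZNF580 and ZNF581 overlap same-strand genes over 15.1% and 23.4% of their exon length. They share 4.04% and 6.95% of their words with other genes, most often with each other. ZNF358, called lower with hemin under nilotinib, overlaps same-strand genes over 20.2% and opposite-strand genes over 14.2% of its exon length. It shares 14.2% of its words with other genes, most often with AC008878.1. Opposite-strand overlap was 10.8% for ZNF146, 13.9% for ZNF460 and 14.1% for ZNF524.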

How the data were processed

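RNA-seq of K562 cells gave 12 libraries, 3 in each of 4 groups. The authors deposited raw read counts per gene, made by a sequencing service from 150-base paired-end reads and not normalized, and FPKM per gene. The submitters' processing notes name GRCh38.p12, DESeq2 and DESeq. The aligner, counter and strand setting are not given in the sources used here. Tests on these counts used edgeR 4.0.16 under R 4.3.3: filterByExpr (minimum count 10, minimum total 15), TMM factors and a quasi-likelihood fit with 1 mean per group over the 12 libraries, with two-sided tests and Benjamini-Hochberg adjustment over 20821 genes. The FPKM the authors deposited served only alternatives in limma 3.58.1 (log2 with a pseudocount of 1 or 0.1). DESeq2 1.42.0 was another alternative. The fitting steps were tested on simulated data; a first limit on recovery over all count levels was missed, since genes with low counts went uncalled, and limits at the members' count level were then set and met. Gene models came from GENCODE 29, whose starts and ends matched all 58735 genes, and promoters from RefSeq. Annotation and figures used Python 3.11.15.

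The genes named are the 3 members that rose most and the 3 that fell most past the threshold, with no overlap between libraries, in each comparison of 2 groups, the 2 of each sign in the interaction, the 5 with the highest level per kilobase, those next to the minimum of 200, and ZNF274, ZNF91 and ZNF93. ZNF550 and ZNF134 were named after their values were seen. Members and lists were chosen with earlier results of these data known.

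The labels number the replicates. Libraries sharing a number deviated together from their group means, with correlations of 0.263, 0.199 and 0.254 between mock nilotinib and hemin nilotinib, above 0.1 in each pair, so the numbers were taken to pair these libraries. In the other comparisons some pair was lower. The correlations were 0.0869 to 0.0989 for nilotinib without hemin, -0.00712 to 0.235 for nilotinib with hemin and 0.0849 to 0.104 for hemin without nilotinib. Libraries of unlike number were not correlated, so the cut of 0.1 cannot settle which libraries were paired.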

Additional observations from a re-analysis of the deposited data

Results flagged for a closer look

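The effect of nilotinib differed between cells with and without hemin in 51 members (37.8%) by edgeR's interaction test over all genes, with 33 differences positive and 18 negative. The test called 30.1% of all genes and 38.4% of protein-coding genes at the same count minimum, so the members' share lay near the latter. Hemin and the longer time since nilotinib was added cannot be told apart. Among the named members the difference on the log2 scale (effect with hemin minus effect without) was 2.49 for ZNF324B, 1.88 for ZNF792, 1.60 for ZNF347, 1.52 for ZNF780A, 1.503 for ZNF554, 0.91 for ZNF524 and 0.87 for ZNF93. It was -0.56 for ZNF274, -1.62 for ZNF823, -1.90 for ZNF557, -1.92 for ZNF473, -1.95 for ZNF432 and -1.95 for ZNF211. In ZNF432, ZNF473 and ZNF557 the libraries that stood apart were the 3 of hemin DMSO, which were the high ones, and in ZNF324B they were the low ones. The ZNF274 difference was the least stable of these, with 11 of its 21 alternatives no longer past the threshold (adjusted p up to 0.178). The cause was not tested.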

How the results depend on the processing

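Of 73 calls of named members, 56 passed the threshold in the same direction under every alternative run. The 1293 alternative values of these calls included 98 no longer past the threshold and 0 reversed. The calls lost most often were those of ZNF557 (11 of 17 alternatives), ZNF558 (9 of 17) and ZNF473 (8 of 17) for hemin with nilotinib, ZNF558 (9 of 17) for nilotinib with hemin and ZNF274 (11 of 21) for the interaction. Counts of members depended on thresholds by construction. With a 2-fold minimum, nilotinib without hemin gave 6 higher and 3 lower, nilotinib with hemin 34 and 10, hemin without nilotinib 9 and 18, hemin with nilotinib 2 and 0, and the interaction 17 and 10. With a mean count of at least 500, which leaves fewer members, these were 23 and 5 for nilotinib without hemin, 32 higher for nilotinib with hemin, 23 and 24 for hemin without nilotinib, 2 higher for hemin with nilotinib, and 17 and 11 for the interaction. Library totals alone gave 18 lower for nilotinib with hemin. For hemin with nilotinib the counts of members higher and lower were 8 and 5 by DESeq2 and 1 and 1 by limma-trend on log2(FPKM + 1) and on log2(FPKM + 0.1), 2 higher with library totals alone, 1 lower with all genes of at least 1 count, and 0 and 0 with its 6 libraries alone. The cause was not tested.

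Leaving out 1 library gave 28 to 33 higher and 6 to 11 lower for nilotinib without hemin, 54 to 63 and 22 to 30 for nilotinib with hemin, 30 to 48 and 39 to 48 for hemin without nilotinib, 1 to 12 and 0 to 7 for hemin with nilotinib, and 27 to 37 and 11 to 20 for the interaction. The lowest 6 came without mock DMSO replicate 2 and the lowest 11 without mock nilotinib replicate 2. For hemin with nilotinib, the 1 higher came without replicate 2 or 3 of mock nilotinib or of hemin nilotinib, and the 0 lower without replicate 2 or 3 of mock nilotinib. With the replicate block in the 12-library fit, nilotinib without hemin gave 42 higher and 11 lower, nilotinib with hemin 67 and 30, hemin without nilotinib 41 and 49, hemin with nilotinib 4 and 2, and the interaction 34 and 21. In the paired comparison, hemin with nilotinib, the block in the 6 libraries alone, chosen after seeing the data, gave 6 higher and 4 lower. The other comparisons were not taken as paired.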
